A study of Saccharomyces cerevisiae with 16 samples.

Results

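The genes described are 44 nuclear genes of mitochondrial respiration and the tricarboxylic acid (TCA) cycle in budding yeast, Saccharomyces cerevisiae, taken from a list of gene symbols drawn up with earlier results of these data known; no measured value enters the rule. They are 44 of the 6227 genes on the array. They comprise the internal NADH dehydrogenase gene NDI1, 4 genes of succinate dehydrogenase, 9 of the cytochrome bc1 complex, the cytochrome c gene CYC1, 9 of cytochrome c oxidase, 9 of ATP synthase and 11 of TCA cycle enzymes. The peroxisomal citrate synthase gene CIT2 is counted among the TCA cycle enzymes. Each of the 44 genes had 1 probe, every probe lay well above background on all 16 arrays, and no spot of them was saturated.

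Total RNA was measured on 16 single-colour Agilent arrays, from 4 lines sampled at 0, 45, 90 and 150 min after methionine was removed, each line once at each time. HOG1 encodes the stress-activated MAP kinase of the osmotic response. Lines WT, H and 170 carried a HOG1 allele behind the MET3 promoter, which methionine represses, in cells deleted for HOG1 by the series record. Line vec carried an empty plasmid; the record names its strain as JBY13 without saying whether HOG1 is deleted there. Line WT carried wild-type HOG1. The labels disagree on the others: line H is named HOG1D170A in the source name and H in the treatment field, and line 170 is named HOG1D170A+F318L in the source name and D170A in the treatment field, so the lines keep their short names here. No array was made from cells kept in methionine, and each line and time is a single sample. The errors and p-values reflect at most the steadiness of a difference over times or over lines, and cannot speak to the spread between cultures. For differences at 0 min and in the change from 0 min, the spread came from the later times only. The steadiness of the 0 min values was not measured there.

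In respiration, electrons from NADH and succinate pass through the bc1 complex and cytochrome c to cytochrome c oxidase, and the proton gradient this builds drives ATP synthase. The TCA cycle supplies the NADH and succinate. Budding yeast has no proton-pumping complex I and uses the single-protein enzyme Ndi1 in its place. It represses many of these genes on glucose, and the HAP complex, with its activating subunit Hap4, raises their transcription when cells respire. The first steps of the cycle, with CIT2 of the peroxisome, are also targets of the retrograde (RTG) pathway, which responds to mitochondrial state and glutamate need.

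HOG1 was checked first against the labels. In units of log2 above the 75th percentile of an array's signals, its value at 0 min was 1.90 in WT, 1.65 in H and 1.51 in 170, and between 5.41 and 6.16 after removal, against -2.31 to -1.67 on the vec arrays. Its probe was well above background on all 4 vec arrays, not far below the median of all genes there (-1.36 to -1.21), so the vec values do not show a line without HOG1 transcript, and their source was not tested. HOG1 was thus already higher in the 3 HOG1 lines than in vec before methionine was removed. Lines WT and H shared 1 slide and vec and 170 the other, so H minus WT and 170 minus vec are within a slide, and in the remaining differences of level the slide and the line cannot be told apart. Time goes with the position of the array on its slide, and these cannot be told apart either. The signal at the 75th percentile ran from 4935 to 11309 units and 93.4% to 98.8% of spots lay well above background. Genes specific to MATa cells (MFA1, MFA2, STE2, STE6, BAR1, AGA2) were detected in every line, with the highest levels in vec: their summed level ran from 3.35 to 5.05 on the vec arrays, 2.57 to 3.54 in WT, 2.04 to 2.74 in H and 2.05 to 2.22 in 170. The 4 alpha-specific markers had a summed level of -2.59 to -1.19, the highest marker standing at -1.76. The 5 meiosis markers had one of -1.80 to -0.74: IME1, IME2, SPO11 and SPO13 were at most at -2.76, while NDT80 reached -1.10 on the 170 array at 45 min, above the median of all genes there (-1.37). In total RNA, fewer cells with a transcript and less transcript per cell cannot be told apart. All values below are on this scale, differences carry the standard error of limma's fit, and a gene is said to have risen, fallen or differed where its p adjusted over all 6165 genes tested was under 0.05.

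The first comparison asked how the genes moved after methionine removal over the 4 lines together. Transcripts of the electron transport chain fell: NDI1, all 4 succinate dehydrogenase genes, all 9 bc1 genes, CYC1 and all 9 cytochrome c oxidase genes were lower over the mean of 45, 90 and 150 min than at 0 min. Of the 9 ATP synthase genes 5 fell, and of the 11 TCA cycle genes 6 fell and 1, ACO1, rose. In all 35 of the 44 genes fell and 1 rose, where over all genes tested 44.3% were called lower and 34.8% higher. The median change of the 44 genes was -1.13 and that of all genes tested -0.11, which became -0.0047 when arrays were scaled to their median instead.

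The largest decreases were in the bc1 complex, in CYC1, in NDI1 and in cytochrome oxidase. QCR9, a small bc1 subunit, had values of 1.27, -0.12, -0.43 and -0.43 at 0, 45, 90 and 150 min in vec. Line WT had 1.52, -0.39, -1.03 and -1.36, line H 1.66, -0.47, -1.20 and -1.14, and line 170 2.10, -0.29, -0.67 and -1.02. All 12 values after removal lay below the 4 values at 0 min. QCR9 fell by 2.35 ± 0.15 (5.10-fold, limma adjusted p = 3.5e-08, lower in 4 of 4 lines). CYT1, which encodes cytochrome c1, fell by 2.24 ± 0.22, QCR10 by 2.20 ± 0.18 and RIP1, the Rieske iron-sulfur protein gene, by 2.02 ± 0.26. Of the other bc1 genes, QCR6 fell by 1.95 ± 0.25, QCR7 by 1.73 ± 0.17 and QCR8 by 1.47 ± 0.15. The core subunit genes COR1 and QCR2 fell by 1.70 ± 0.16 and 1.36 ± 0.12, the latter the smallest decrease of the complex.

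NDI1, the internal NADH dehydrogenase, stood at -0.47, 0.26, 0.69 and 0.65 at 0 min in vec, WT, H and 170, and at -1.94, -2.10, -2.25 and -2.19 at 45 min. Its 12 values after removal, at most -1.56, all lay below those at 0 min, and the decrease was 2.20 ± 0.18 (adjusted p = 2.7e-07). Succinate dehydrogenase, which belongs to both the TCA cycle and the respiratory chain, split by subunit. The catalytic subunit genes SDH1 (flavoprotein) and SDH2 (iron-sulfur protein) fell by 1.64 ± 0.20 and 1.83 ± 0.21, the membrane anchor genes SDH3 and SDH4 by 0.96 ± 0.16 and 1.25 ± 0.14; the difference between the subunits was not tested.

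In cytochrome c oxidase, COX5A fell most, by 2.15 ± 0.24, followed by COX7 (2.08 ± 0.21), COX13 (1.88 ± 0.16), COX4 (1.69 ± 0.21) and COX12 (1.64 ± 0.20). COX5A and COX5B encode alternative forms of subunit 5, the first made in air and the second raised under low oxygen. COX5A stood at 1.04, 1.91, 2.39 and 2.52 at 0 min in vec, WT, H and 170, and between -0.59 and 0.24 after removal. COX5B stood at 3.45, 3.32, 3.30 and 3.69 at 0 min and between 1.54 and 2.69 after removal, and fell by 1.34 ± 0.13. Both isoforms were thus lower on every array after removal than on any at 0 min. COX6, COX8 and COX9, which encode further small subunits, fell by 1.47 ± 0.12, 1.01 ± 0.13 and 1.0 ± 0.09.

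Changes of the ATP synthase genes were smaller, with a median of -0.27, against -1.95 for the bc1 genes and -1.64 for the cytochrome oxidase genes; this difference between groups was not tested. Values of ATP2, the catalytic beta subunit, were 1.88, 2.02, 2.22 and 2.29 over the 4 times in vec, and 2.52, 2.24, 2.27 and 2.21 in WT. They were 2.79, 2.0, 2.07 and 2.20 in H and 2.91, 2.03, 2.26 and 2.02 in 170, so that values before and after removal overlapped. Of the F1 genes ATP1 (alpha) and ATP2 fell, by 0.42 ± 0.13 and 0.37 ± 0.14, while ATP3 (gamma) and ATP16 (delta) were at -0.13 ± 0.11 and -0.18 ± 0.13. Of the stalk and membrane sector genes ATP17 and ATP7 fell most, by 0.82 ± 0.09 and 0.66 ± 0.14, ATP4 fell by 0.27 ± 0.10, and ATP5 and ATP14 did not pass the test (-0.16 ± 0.12 and -0.24 ± 0.13). The decreases of ATP1, ATP2 and ATP4 over the 4 lines together were not seen in vec. There ATP1 ran through 2.03, 1.84, 2.31 and 2.44 over the 4 times, and ATP4 through -0.03, -0.10, 0.17 and 0.10.

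**Figure D1:**
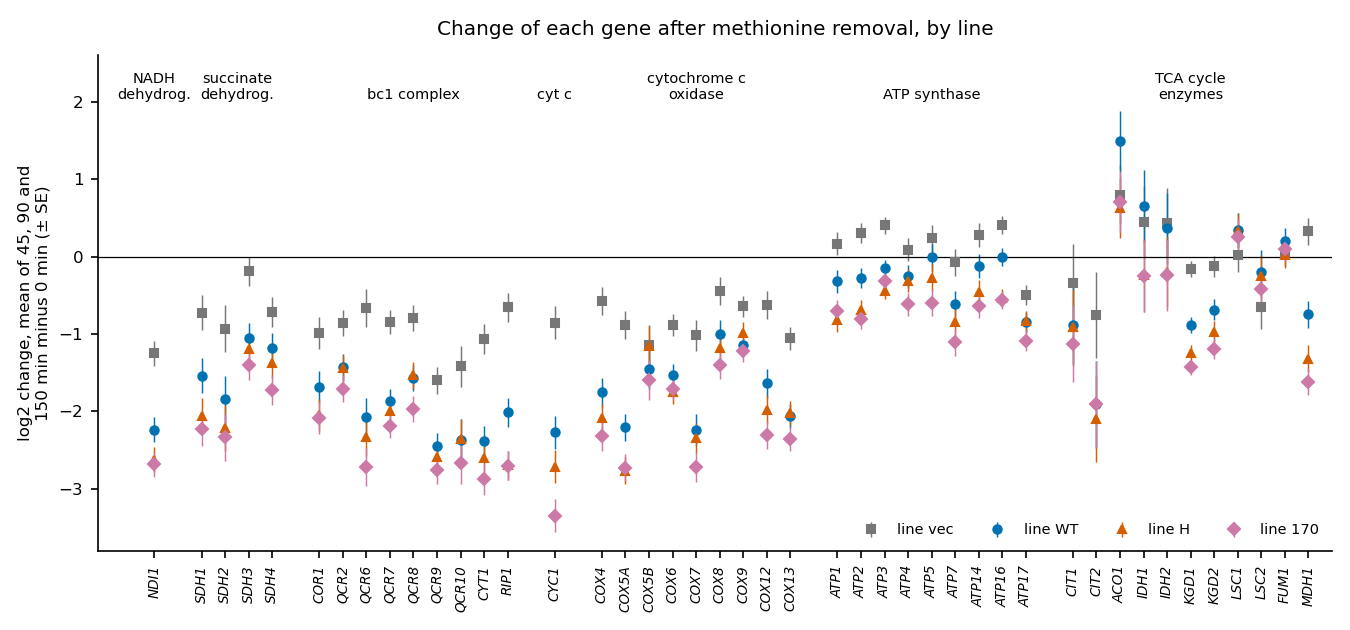
Change of each of the 44 genes in each line: mean of 45, 90 and 150 min minus 0 min, on the log2 scale (y axis), with genes grouped by complex (x axis), points for the fitted change and bars for its standard error. The electron transport chain genes lie below 0 in every line, the vec points highest for most of them, while ATP synthase and several TCA cycle genes lie near 0 in vec.

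The TCA cycle split within itself. CIT2, the peroxisomal citrate synthase, fell by 1.67 ± 0.29 and CIT1, its mitochondrial counterpart, by 0.82 ± 0.23. ACO1 (aconitase) rose by 0.91 ± 0.20 (adjusted p = 0.0010, in 4 of 4 lines). IDH1 and IDH2, the subunits of NAD-dependent isocitrate dehydrogenase, were at 0.15 ± 0.24 and 0.09 ± 0.22. Of the enzymes after alpha-ketoglutarate, KGD1 and KGD2 (alpha-ketoglutarate dehydrogenase) fell by 0.93 ± 0.15 and 0.74 ± 0.13, LSC2 (succinyl-CoA ligase, beta) by 0.38 ± 0.13 and MDH1 (mitochondrial malate dehydrogenase) by 0.84 ± 0.23. LSC1 (succinyl-CoA ligase, alpha) and FUM1 (fumarase) were at 0.24 ± 0.11 and 0.09 ± 0.08, not past the threshold.

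ACO1 ran through 2.83, 3.80, 3.75 and 3.36 over the 4 times in vec and through 1.47, 3.15, 2.43 and 3.31 in WT. Line H gave 1.67, 2.62, 1.53 and 2.75 for it, and line 170 gave 1.72, 2.33, 1.94 and 2.99. It was higher at 45 and 150 min than at 0 min in every line, and at 90 min in H it lay below its 0 min value. For IDH1 the values were 2.16, 3.08, 2.84 and 1.87 in vec and 1.51, 2.59, 1.72 and 2.18 in WT. Line H gave 1.80, 2.03, 0.79 and 1.86, and line 170 gave 2.14, 2.07, 1.35 and 2.26. In the 3 HOG1 lines IDH1, IDH2, ACO1, CIT1 and CIT2 had lower values at 90 min than at 45 and 150 min; in vec the 90 min values of CIT1, ACO1, IDH1 and IDH2 lay between the other 2. None of the 5 passed the test between 45 and 90 min, where their differences over the 4 lines ran from -0.96 ± 0.35 (CIT2) to -0.55 ± 0.27 (IDH2). The 5 genes were set apart from the other TCA genes with their values in view.

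**Figure D2:**
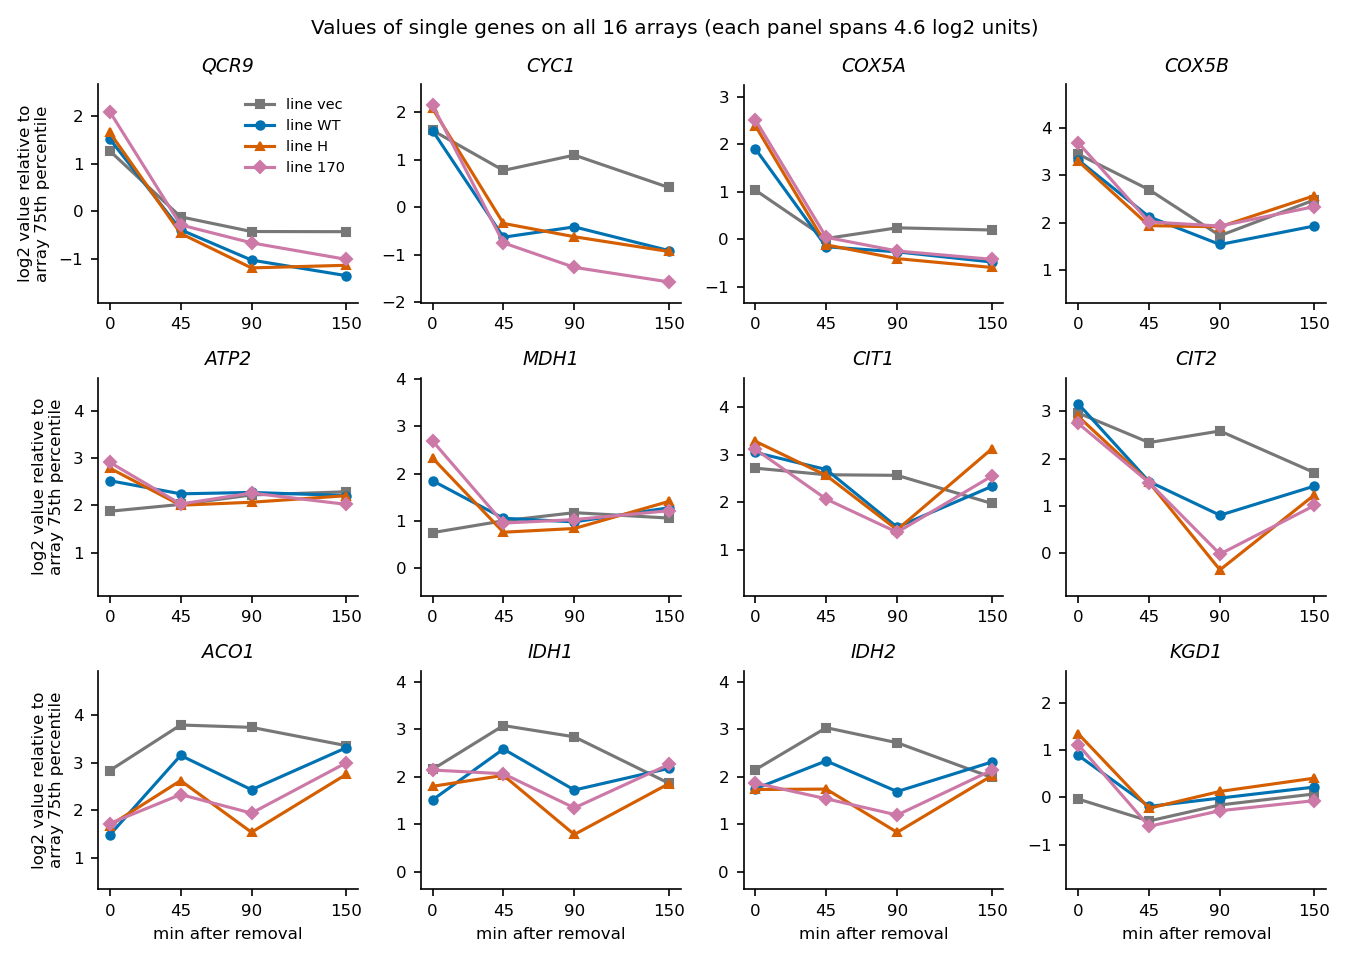
Values of 12 genes on all 16 arrays (y axis, log2 scale, the 75th percentile of each array at 0) by minutes after methionine removal (x axis), 1 line per yeast line and 1 array per point. QCR9 and COX5A fall at 45 min and stay low, ATP2 moves less, and CIT1, CIT2, ACO1, IDH1 and IDH2 dip at 90 min in WT, H and 170.

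The decrease was in place at the first time measured after removal. At 45 min 36 of the 44 genes were lower than at 0 min and 1 higher (over all genes tested 44.5% and 31.8%), at 90 min 32 were lower and 0 higher (41.0% and 33.7%), and at 150 min 30 were lower and 3 higher (40.0% and 33.5%). At 90 min 0 genes were higher at an unadjusted p under 0.05 either, and ACO1, the highest, was at 0.49 ± 0.24. The 3 higher at 150 min were ACO1 (1.18 ± 0.24), LSC1 (0.52 ± 0.13) and FUM1 (0.24 ± 0.10). Of the 9 ATP synthase genes 8 were lower at 45 min (median -0.45), and 2, ATP7 and ATP17, at 90 and at 150 min (medians -0.26 and -0.29). Between 45 and 90 min 0 of the 9 passed, with 3 higher at an unadjusted p under 0.05, and between 90 and 150 min 0 passed, with 0 at an unadjusted p under 0.05. Between 45 and 90 min 0 of the 44 genes passed, with 10 at an unadjusted p under 0.05, where 13.9% of all genes tested were called higher and 10.4% lower. Between 90 and 150 min 0 passed, with 5 at an unadjusted p under 0.05 (1.54% and 2.16%). Without line vec these steps had 12 and 7 called genes, on the slide of WT and H alone 10 and 0, and with median scaling 3 and 0. On the slide of vec and 170 alone, with fewer arrays, 19, 18 and 20 genes were called at 45, 90 and 150 min, all lower.

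**Figure D3:**
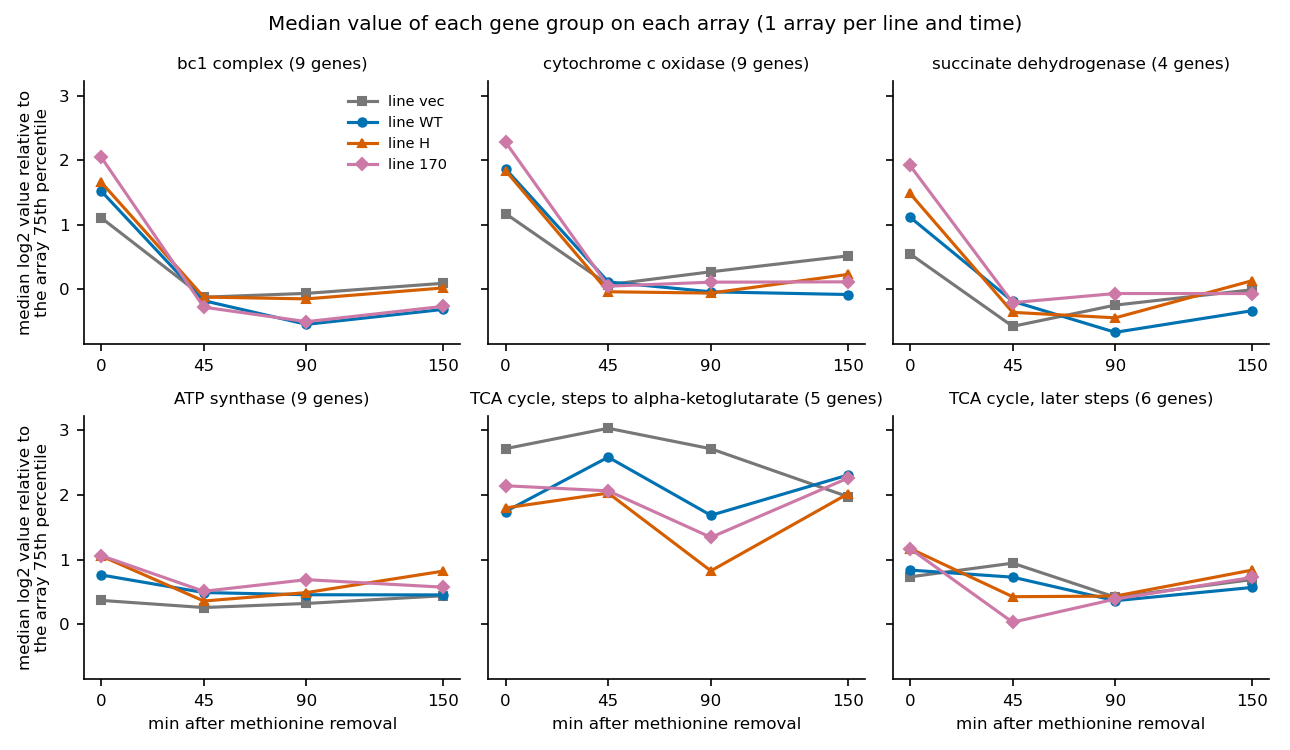
Median value of each gene group on each array (y axis, log2 scale, the 75th percentile of each array at 0) by minutes after methionine removal (x axis), 1 line per yeast line. At 0 min the bc1, cytochrome oxidase and succinate dehydrogenase medians are lowest in vec, and after removal the 4 lines lie closer together in these groups. For the TCA steps to alpha-ketoglutarate the medians span 1.75 to 2.72 at 0 min and 0.83 to 2.72 at 90 min.

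Across the 16 arrays the genes of the chain went up and down together. The median pairwise Pearson r was 0.96 within the bc1 complex (36 pairs), 0.93 within cytochrome oxidase (36 pairs), 0.91 within succinate dehydrogenase (6 pairs) and 0.71 within ATP synthase (36 pairs). It was 0.96 between bc1 and cytochrome oxidase genes and 0.54 between bc1 and ATP synthase genes. Within the TCA cycle it was 0.23 over 55 pairs, which ran from -0.57 to 0.94. These values are a description: the 16 arrays share their scaling, their 4 times and their 4 lines, and the common change at 0 min enters all of them.

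The second comparison was made before removal, at 0 min, between each HOG1 line and vec, with 1 array a side and the spread taken from the later times. Of the 44 genes 13 were higher than in vec in WT (over all genes tested 11.7% were called higher), 29 in H (14.8%) and 33 in 170 (12.3%). In each of the 3 lines 0 were lower, where 12.8%, 17.3% and 18.3% of all genes tested were. At an unadjusted p under 0.05, 1 gene was lower in each line, and ACO1, the lowest, was at -1.36 ± 0.47, -1.16 ± 0.47 and -1.12 ± 0.47 in WT, H and 170 and did not pass the threshold. The median differences of the 44 genes from vec were 0.49, 0.71 and 0.97, those of all genes tested 0.04, 0.02 and -0.05. The 3 differences share the vec array, which enters each of them. MATa-specific markers were also higher in vec at 0 min than in the HOG1 lines, and their part in these differences was not tested.

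MDH1 showed the largest positive difference at 0 min in WT and in 170, and RIP1 in H. The 0 min value of MDH1 was 0.76 in vec, 1.85 in WT, 2.33 in H and 2.69 in 170, and it was higher than in vec by 1.1 ± 0.21 (adjusted p = 0.0077), 1.57 ± 0.21 (adjusted p = 0.0012) and 1.93 ± 0.21 (adjusted p = 0.00048). RIP1 was higher by 1.01, 1.69 and 1.41 (± 0.23), COX5A by 0.87, 1.36 and 1.49 (± 0.22) and KGD1 by 0.92, 1.38 and 1.15 (± 0.12). The 13 genes called in all 3 lines were MDH1, RIP1, COX5A, KGD1, NDI1, QCR2, QCR6, COX4, COX7, COX12, COX13, ATP1 and ATP2. Line 170 differed from vec in all 9 bc1 genes, all 9 ATP synthase genes, all 4 succinate dehydrogenase genes and 7 of 9 cytochrome oxidase genes. CYC1 did not follow the rest: it stood at 1.62, 1.62, 2.08 and 2.15 in vec, WT, H and 170, with differences from vec of -0.00, 0.46 and 0.53 (± 0.26), none past the threshold. COX5B was at -0.12, -0.15 and 0.24 (± 0.32), and COX8, CIT1, CIT2, ACO1, IDH1, IDH2, LSC1, LSC2 and FUM1 were not called in any line either.

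Among the HOG1 lines 0 of the 44 genes were called at 0 min, with 5, 20 and 6 at an unadjusted p under 0.05 in H minus WT, 170 minus WT and H minus 170. Over all genes tested only 1 (0.0162%, higher), 11 (0.178%, lower) and 6 (0.0973%, higher) were called in these comparisons. The counts against vec depended on the times used to estimate the spread: without 90 min they were 1 (KGD1), 9 and 26 for WT, H and 170, and without 45 min 21, 30 and 37. With quantile normalization WT had 24 called genes. The difference of 170 from vec lies within a slide, and on that slide alone 16 of the 33 genes were called, all higher, MDH1, RIP1, COX5A and NDI1 among them.

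The third comparison set the HOG1 lines against vec after removal, over 45, 90 and 150 min. Most of the genes that differed were then lower in the HOG1 lines. In WT 10 of the 44 genes were lower and 0 higher than in vec (over all genes tested 12.6% lower and 17.0% higher), in H 13 were lower and 3 higher (24.5% and 25.1%), and in 170 9 were lower and 4 higher (16.2% and 16.1%). The shares lower, 22.7%, 29.5% and 20.5%, stood above the background in WT and near it in H and 170. At an unadjusted p under 0.05, 2 genes were higher in WT, where QCR2 had the highest value, 0.29 ± 0.12. The medians of the 44 genes were -0.21, -0.19 and -0.17, those of all genes tested 0.03, -0.01 and -0.03. The vec arrays are again common to the 3 differences, and the MATa-specific markers again stood higher in vec; their part was not tested.

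CYC1 (iso-1-cytochrome c, the main form of cytochrome c) showed the largest of these differences in WT and 170. Its values at 45, 90 and 150 min were 0.78, 1.1 and 0.42 in vec and -0.63, -0.42 and -0.91 in WT. Line H had -0.34, -0.62 and -0.93, and line 170 had -0.75, -1.27 and -1.58. All 9 values of the HOG1 lines lay below the 3 of vec. CYC1 was lower than in vec by 1.42 ± 0.15 in WT (differences from -1.51 to -1.33, adjusted p = 0.00068), by 1.40 ± 0.15 in H (adjusted p = 0.00014) and by 1.96 ± 0.15 in 170 (adjusted p = 6.8e-05), at 3 of 3 times in each line. It passed under every alternative tried in all 3 lines. It was lower in 170 than in WT (-0.54 ± 0.15, adjusted p = 0.039) and higher in H than in 170 (0.57 ± 0.15, adjusted p = 0.036), both across slides, and neither passed without 90 min (adjusted p = 0.37 and 0.26).

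CYT1, cytochrome c1, and COX4, a subunit of cytochrome oxidase, were the other genes lower in all 3 lines. CYT1 was lower than in vec by 0.63 ± 0.14, 0.50 ± 0.14 and 0.87 ± 0.14 in WT, H and 170, and COX4 by 0.45 ± 0.13, 0.47 ± 0.13 and 0.45 ± 0.13. Another 9 genes were lower in 2 of the lines, among them QCR7 (-0.52 and -0.48), QCR9 (-0.60 and -0.61), COX5A (-0.45 and -0.52), COX8 (-0.44 and -0.47), ATP16 (-0.27 and -0.37) and SDH3 (-0.50 and -0.57) in WT and H. Genes higher than in vec were QCR2 (0.73 ± 0.12), ATP4 (0.43 ± 0.11) and KGD1 (0.30 ± 0.07) in H, and ATP4 (0.39 ± 0.11), ATP14 (0.38 ± 0.11), ATP17 (0.35 ± 0.10) and COX9 (0.31 ± 0.10) in 170. The subunits of a complex therefore did not differ in 1 direction: in H, QCR2 was higher while QCR7, QCR9 and CYT1 were lower.

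Of the 5 genes of the first TCA steps, 4 were lower than in vec in H and 3 in 170, among the larger differences there. Over all genes tested 24.5% were called lower in H and 16.2% in 170. The 5 genes were set apart with their values in view, so these counts describe a group picked from the same data. CIT2 had values of 2.34, 2.58 and 1.70 in vec over the 3 times and 1.52, 0.81 and 1.42 in WT. Line H had 1.5, -0.35 and 1.24, and line 170 had 1.5, -0.01 and 1.01. Every value of the HOG1 lines lay below every value of vec, farthest at 90 min. CIT2 was lower by 1.41 ± 0.40 in H and 1.38 ± 0.40 in 170, and in WT it was at -0.96 ± 0.40 and did not pass. ACO1 was lower by 1.33 ± 0.27 in H and 1.21 ± 0.27 in 170, and IDH2 by 1.05 ± 0.32 and 0.96 ± 0.32. IDH1 was lower in H (-1.04 ± 0.33) and at -0.71 ± 0.33 in 170. For IDH2 the difference was present at 2 of 3 times, since at 150 min it was at 0.03 in H and 0.15 in 170. The IDH1 difference in H was -0.01 at 150 min. CIT1 was at -0.00 ± 0.35 in H and -0.38 ± 0.35 in 170, and at 150 min it was higher in both (3.12 and 2.55) than in vec (1.98). In WT 0 of the 11 TCA genes were called (over all genes tested 12.6% lower and 17.0% higher), with 4 at an unadjusted p under 0.05.

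These calls rested on the 90 min arrays to a large degree. Without 90 min 1 gene (CYC1) was called in WT, 3 (CIT2, CYC1 and QCR2) in H and 3 (CIT2, CYC1 and CYT1) in 170, while the medians of the 44 genes were -0.15, -0.14 and -0.16. Without 150 min the counts were 5, 12 and 7, and without the WT array at 45 min and the 170 array at 150 min, which had the lowest shares of spots above background, they were 5 in WT and 8 in 170. Without 90 min ACO1 was at -0.89 in H (adjusted p = 0.052) and at -0.92 in 170 (adjusted p = 0.080). With only the 2 lines compared in the fit, the counts were 4, 6 and 2.

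Among the HOG1 lines few of the genes differed. In H minus WT, within a slide, 0 of the 44 genes were called (over all genes tested 4.33% higher and 1.64% lower), with 2 at an unadjusted p under 0.05 and 1 called with normexp background correction. In 170 minus WT, COX9 (0.33 ± 0.10) and ATP14 (0.38 ± 0.11) were higher and CYC1 and KGD1 (-0.32 ± 0.07) lower, so 50% of the calls were higher, against 75% with median scaling; over all genes tested 6.80% were called higher and 10.9% lower. In H minus 170, QCR2 (0.44 ± 0.12), CYC1 and KGD1 (0.42 ± 0.07) were higher, 100% of the calls, against 40.0% with normexp and 50% with median scaling; over all genes tested 9.34% were called higher and 6.85% lower. Both cross slides, and without the WT 45 min and 170 150 min arrays 0 genes were called in either.

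**Figure D4:**
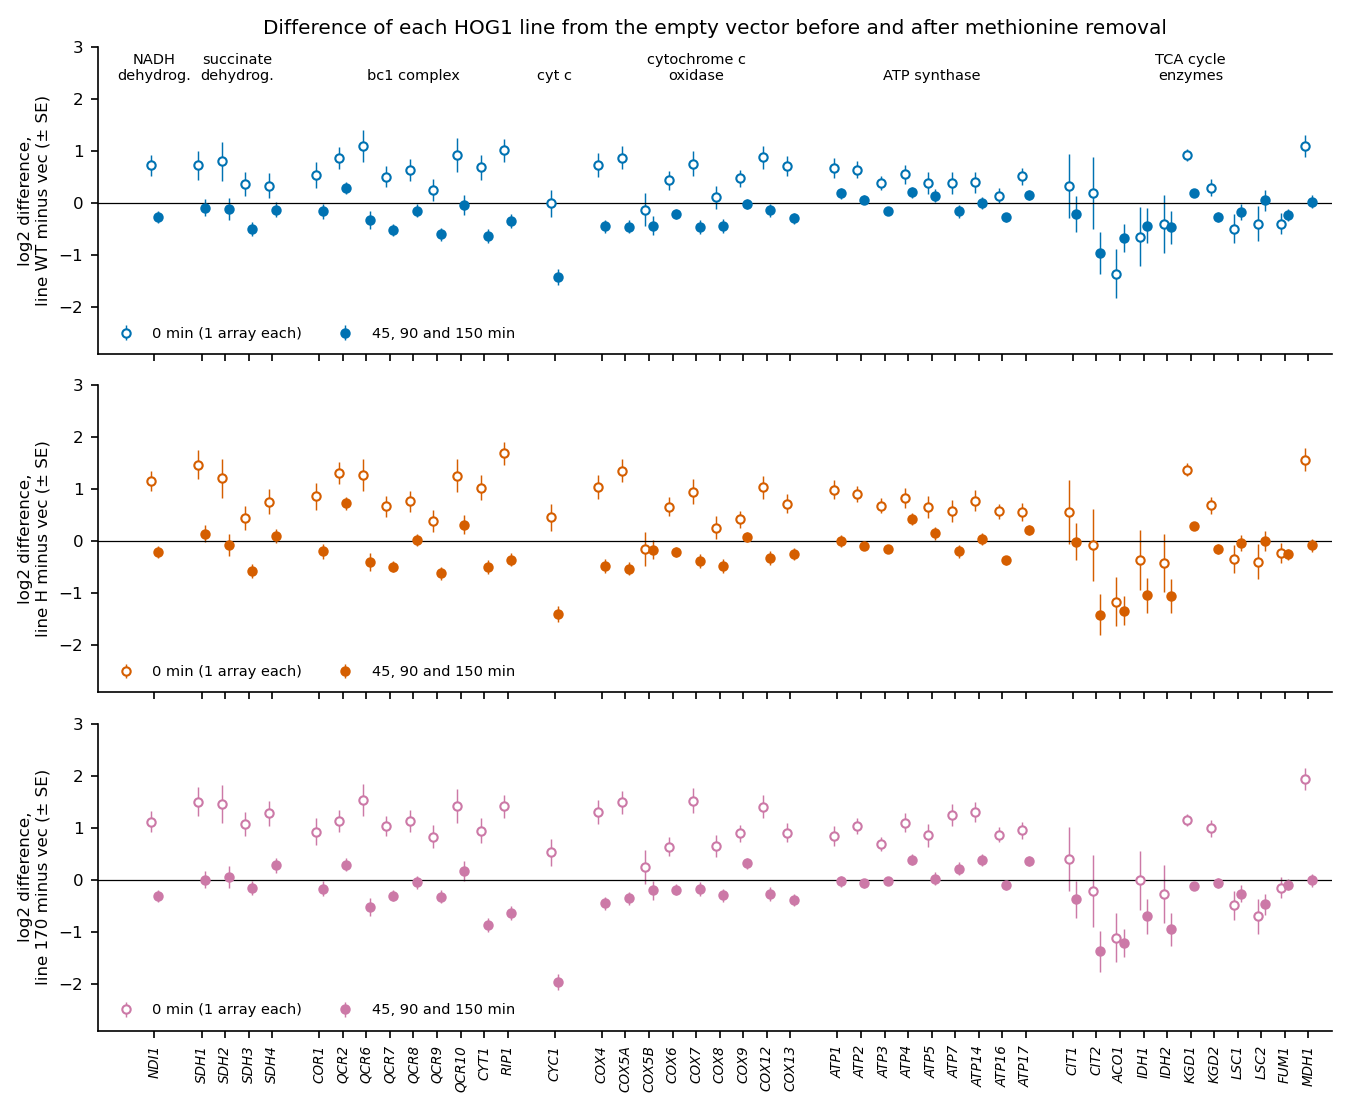
Difference of each HOG1 line from vec on the log2 scale (y axis) for the 44 genes grouped by complex (x axis), at 0 min (open circles) and over 45, 90 and 150 min (filled circles), with bars for the standard error; panels from top to bottom are WT, H and 170. Most open circles lie above 0 and most filled circles at or below 0, and CYC1 has the lowest filled circle in WT and 170.

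The fourth comparison set the change from 0 min in each HOG1 line against that in vec, where a constant offset between slides cancels. The spread was taken from the later times, with a single array per line at 0 min. Within vec itself the chain fell: 23 of the 44 genes were lower after removal and 2 higher (over all genes tested 32.7% and 24.8%), all 9 bc1 genes (median -0.86) and 8 of 9 cytochrome oxidase genes (median -0.89) among the lower ones. ATP3 and ATP16 were the 2 that rose in vec, by 0.40 ± 0.11 and 0.41 ± 0.12, whereas in H and 170 both fell. Within WT 30 were lower and 1 (ACO1, 1.49 ± 0.39) higher, where 38.2% and 29.1% of all genes tested were. Within H 35 were lower and 0 higher (35.5% and 30.3%), and within 170 37 and 0 (36.5% and 31.6%), with 0 higher in H and 170 also at an unadjusted p under 0.05. The bc1 median was -2.01, -2.34 and -2.67 in WT, H and 170.

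The difference in change was tested directly. It was lower than in vec for 13 of the 44 genes in WT (over all genes tested 2.64% were called lower), 24 in H (6.80%) and 33 in 170 (7.43%), and higher for 0 in each, also at an unadjusted p under 0.05 (over all genes tested 5.66%, 11.6% and 13.6% were called higher). The highest difference was that of ACO1 in WT, at 0.69 ± 0.54. Over all genes tested the higher calls were 68.2%, 63.1% and 64.6% of the calls in WT, H and 170, and 53.3%, 50.1% and 50.4% with quantile normalization. The medians of the 44 genes were -0.62, -0.94 and -1.08, and those of all genes tested 0.01, 0.04 and 0.06. The vec arrays enter all 3 differences.

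The change of CYC1 was -0.86 ± 0.21 in vec, -2.27 in WT, -2.72 in H and -3.35 in 170, and differed from vec by -1.41 ± 0.30, -1.86 ± 0.30 and -2.49 ± 0.30. MDH1 was at 0.33 ± 0.17 in vec and fell in WT, H and 170, by 0.74, 1.32 and 1.62 (± 0.17), with differences of -1.07, -1.65 and -1.95 (± 0.25). For MDH1 the 4 lines had similar values after removal (0.76 to 1.41), and the difference in change lay in the 0 min values. For CYC1 the reverse held in WT: values at 0 min were alike in vec and WT (1.62) and those after removal were apart. In H and 170 CYC1 was above vec at 0 min, by 0.46 and 0.53, neither past the threshold. Part of the difference in change of these lines thus lay in the 0 min values. The genes called in all 3 lines numbered 13: QCR6, QCR7, CYT1, RIP1, CYC1, COX4, COX5A, COX7, COX12, COX13, KGD1, MDH1 and NDI1. All but QCR7, CYT1 and CYC1 were also called higher than in vec at 0 min in all 3 lines. QCR7 and CYT1 were called higher there in H and 170. CYT1 stood at 1.11, 1.80, 2.15 and 2.05 at 0 min in vec, WT, H and 170. The calls of these genes are thus not separate from those at 0 min. ATP synthase had 0 called genes in WT (4 at an unadjusted p under 0.05), 5 in H and 8 in 170, and all 9 had a negative difference in each line.

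The counts of calls again moved with the times used. Without 90 min they were 0, 0 and 2 (CYC1 and RIP1) for WT, H and 170, without 150 min 0, 17 and 21, and without 45 min 20, 28 and 35, whereas the medians of the 44 genes ranged from -0.75 to -0.59, from -0.99 to -0.85 and from -1.12 to -1.04 over these settings. Without the WT 45 min and 170 150 min arrays 6 genes were called in WT. On the slide of vec and 170 alone 1 of the 33 genes, MDH1, was called, and CYC1 was at -2.49 (adjusted p = 0.058). Among the HOG1 lines 0 of the 44 genes were called, with 6, 10 and 0 at an unadjusted p under 0.05 in H minus WT, 170 minus WT and H minus 170, where 0 of all genes tested were called.

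A further 126 genes of respiration outside the 44 were tested, in 8 lists, and 73 of them fell and 28 rose between 0 min and the later times (57.9% and 22.2%), where over all genes tested 44.3% were called lower and 34.8% higher. These shares are the background for each list below, and lists of this size near them show nothing particular. Of 14 other subunits and inhibitors of oxidative phosphorylation 11 fell and 2 rose: CYC7, the iso-2-cytochrome c of low oxygen, fell by 3.35 ± 0.24, NDE2 (external NADH dehydrogenase) by 3.33 ± 0.16, CYB2 (lactate dehydrogenase that feeds cytochrome c) by 2.66 ± 0.10 and STF2 by 1.92 ± 0.21. Among 17 genes of TCA isoenzymes and of the pyruvate and glyoxylate steps 11 fell and 4 rose, and the glyoxylate cycle genes MLS1 and ICL1 fell by 2.42 ± 0.15 and 1.40 ± 0.09. CIT3, the minor mitochondrial citrate synthase, and IDP2, cytosolic isocitrate dehydrogenase, fell by 1.72 ± 0.15 and 1.25 ± 0.13. Of the assembly factors for cytochrome oxidase and bc1, 14 of 30 were lower (46.7%, near the background) and 8 higher (26.7%) (COX15, heme A synthase, -2.01 ± 0.14; PET122 1.36 ± 0.24). Of those for ATP synthase and succinate dehydrogenase, 10 of 16 were lower and 4 higher (SDH6 -2.16 ± 0.13; NCA3 1.97 ± 0.13).

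Of the 8 heme synthesis genes 0 fell (0 also at an unadjusted p under 0.05) and 4 rose, led by HEM13 (coproporphyrinogen oxidase, 0.90 ± 0.14) and HEM12 (0.59 ± 0.10). Of 11 coenzyme Q genes 6 fell and 1 rose (COQ11 -1.66 ± 0.15, COQ4 -1.25 ± 0.10). Of 13 mitochondrial carrier genes 8 fell and 4 rose, 30.8% higher against 34.8% over all genes tested, with PIC2 (phosphate and copper carrier) at -3.62 ± 0.14 and CTP1 (citrate carrier) at 2.23 ± 0.18. Of 17 regulators 13 fell and 1 rose, RTG3 (-1.84 ± 0.12), HAP1 (-1.62 ± 0.18), HAP4 and CAT8 (-1.32 ± 0.20) most.

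HAP4, which encodes the activating subunit of the HAP complex, stood at -0.49, 0.99, 1.31 and 0.92 at 0 min in vec, WT, H and 170, and between -1.53 and -0.03 after removal. It fell by 1.44 ± 0.24 over the 4 lines (adjusted p = 0.00014). At 0 min HAP4 was higher than in vec by 1.48, 1.81 and 1.41 (± 0.37, largest adjusted p = 0.020), the direction shown by most of the 44 genes at that time. This was not particular to HAP4. Of the 17 regulators 9, 12 and 11 were called higher than in vec at 0 min in WT, H and 170, and 1, 1 and 0 lower. Over all genes tested 11.7%, 14.8% and 12.3% were called higher. After removal HAP4 was at 0.39, 0.09 and -0.29 (± 0.21) against vec, none past the threshold. Its change from 0 min was lower than in vec in H and 170 (-1.72 and -1.70, ± 0.42) and at -1.09 in WT, which did not pass. Over the 16 arrays the median r of HAP4 with the bc1 and cytochrome oxidase genes was 0.85, with ATP synthase 0.46 and with the first TCA steps 0.05, again as a description of arrays that share times and lines. The alternatives were run for the 44 genes and not for these further lists.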

How the data were processed

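The scanned single-colour yeast arrays were quantified, per the file headers, in Agilent Feature Extraction 10.7.1.1; labelling used Cy3, per the labels' protocols. The deposited scanner files give an intensity per spot, background-subtracted by that software and not scaled between arrays. The authors' deposited value table gives 6107 probes as log2, with the median of every probe over a slide's 8 arrays at 0; its column medians run from -0.037 to 0.065, and its within-slide differences had a correlation of at least 0.998 with those used here. The genome build in the file headers differs from that of the RefSeq gene table, which served for names only, so no positions or sequences are given.

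The 2 spots of a probe were averaged as log2 of the processed intensity, and the 75th percentile of the array was subtracted. Genes were tested (6165 of 6227) if their brightest probe, which stood for the gene, was well above background on 3 or more of the 16 arrays. Fits used R 4.3.3 and the lmFit and eBayes functions of limma 3.58.1, with two-sided tests, Benjamini-Hochberg adjustment over all genes tested and a threshold of 0.05. Change with time was fitted on 16 arrays with line and time as terms (9 residual degrees of freedom), line differences after removal on 12 arrays with the same terms (6), and differences at 0 min and in the change from 0 min on 16 arrays with an added term for the change in each line (6). The fits were tested on simulated data, with noise independent between genes and arrays and of the same spread at all times. Such data cannot speak to effects shared within a culture or to the steadiness of the single 0 min arrays.

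The 44 members and the lists of other genes were chosen with earlier results of these data known. All members could be named, and of each other list up to 4 genes with the largest change with time that passed, with HAP4 always. Alternatives changed background correction (normexp, offset 50), scaling (median, quantile), filter, probes per gene, variance model, threshold (0.01), values used, and which lines, times or slide entered. Chosen after seeing the data were the fits without the WT 45 min and 170 150 min arrays, which had the lowest shares of spots above background. The slide of vec and 170 alone, for 0 min and the change from 0 min, was also chosen then. So was the value table for the change from 0 min. The value table was not run for the differences at 0 min.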

Additional observations from a re-analysis of the deposited data

Results flagged for a closer look

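The change from 0 min differed between the HOG1 lines and vec by a test of that difference itself, in 13 of the 44 genes for WT, 24 for H and 33 for 170, all lower than in vec; over all genes tested 2.64%, 6.80% and 7.43% were called lower and 5.66%, 11.6% and 13.6% higher. The 13 genes called in all 3 lines, with their differences for WT, H and 170 on the log2 scale, follow by complex. In the bc1 complex QCR6 was at -1.42, -1.67 and -2.06, QCR7 at -1.03, -1.16 and -1.34, CYT1 at -1.32, -1.53 and -1.81, and RIP1 at -1.36, -2.04 and -2.05. CYC1 was at -1.41, -1.86 and -2.49. In cytochrome oxidase COX4 was at -1.18, -1.52 and -1.75, COX5A at -1.32, -1.88 and -1.85, COX7 at -1.22, -1.33 and -1.70, COX12 at -1.02, -1.36 and -1.68, and COX13 at -1.01, -0.96 and -1.30. Outside the cytochromes KGD1 was at -0.72, -1.08 and -1.27, MDH1 at -1.07, -1.65 and -1.95, and NDI1 at -0.99, -1.37 and -1.43. All of these but QCR7, CYT1 and CYC1 were also called higher than in vec at 0 min in all 3 lines. QCR7 and CYT1 were called higher there in H and 170. A difference in change is the difference after removal less that at 0 min. These calls thus rest partly on the single vec array at 0 min and are not separate from the calls there. In H, KGD1 was higher than in vec after removal. The 3 lines share the vec arrays, groups hold 1 array each, and no array can be tested as outlying within its group.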

How the results depend on the processing

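Among the single-gene values followed under the alternatives (the mean change with time of the 44 genes, and the called line differences after removal, at 0 min and in the change from 0 min), 0 that passed the test changed sign; changes at single times, within single lines and of the other listed genes were not followed gene by gene. The counts of called genes among the 44 that moved by more than 1.5 times are given here with the count as reported in brackets. On the slide of vec and 170 alone, the change at 45, 90 and 150 min had 19 (37), 18 (32) and 20 (33) calls, 170 minus vec at 0 min 16 (33) and its change from 0 min 1 (33). From 45 to 90 min there were 3 (0) with median scaling and 10 on the slide of WT and H alone. At a threshold of 0.01, WT, H and 170 minus vec after removal had 2 (10), 10 (16) and 4 (13), WT and H minus vec at 0 min 2 (13) and 12 (29), and the change from 0 min 0 (13), 10 (24) and 16 (33); 170 minus WT had 0 (4) and H minus 170 had 1 (3). Without the WT 45 min and 170 150 min arrays, WT and 170 minus vec after removal had 5 and 8, 170 minus WT 0, H minus 170 0, and WT minus vec in the change from 0 min 6. With only the 2 lines in the fit, WT, H and 170 minus vec had 4, 6 and 2, and H minus WT and 170 minus WT 1 each. With quantile normalization, 170 minus WT had 2 after removal and 5 (0) at 0 min, and WT minus vec 24 at 0 min and 23 in the change from 0 min. With normexp, H minus WT had 1 (0) and H minus 170 5. The cause of these moves was not tested, apart from the fewer arrays or stricter threshold where that is the alternative.

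Leaving out 1 line in turn gave 30 to 40 calls for the mean change with time, 32 to 38 at 45 min, 30 to 39 at 90 min, 30 to 38 at 150 min, 0 to 12 from 45 to 90 min and 0 to 7 from 90 to 150 min. Leaving out 1 of the later times gave 1 to 11, 3 to 18 and 3 to 11 for WT, H and 170 minus vec after removal, 0 to 2 for H minus WT, 0 to 4 for 170 minus WT and 0 to 3 for H minus 170. At 0 min it gave 1 to 21, 9 to 30 and 26 to 37, and in the change from 0 min 0 to 20, 0 to 28 and 2 to 35. Each group holds 1 array, so the groups compared share fewer than 2 replicate numbers and could not be paired by replicate. Line and time, which the labels give, were terms of the fits, so lines were compared at matched times. With 16 arrays and none repeated, precision is limited; the 44 probes all lay well above background. Promoter motifs were not analysed here.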
